A study of Mus musculus with 10 samples.

Results

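Integrin and tissue residency genes were followed in a map of H3K4me2, the dimethyl form of lysine 4 on histone H3, read from sequenced chromatin precipitates of mouse lymphocytes. The 10 genes were Itgae, Itga4, Itgb7, Itgal, Itgb1, Itgb2, Itgav, Cd69, Cd44 and Selplg. A peak counted for a gene when that gene was the nearest protein-coding gene of the RefSeq table within 100 kb. Of 152121 peaks in 8 libraries, 223 had 1 of the 10 genes as their nearest. Lymphocytes came from mice labelled Gata3-YFP/YFP, all of them with airway inflammation, and were sorted by antibodies and by the yellow fluorescent protein, so the libraries used here share that allele and that inflammation. Group 2 innate lymphoid cells (ILC2s), T helper 2 cells (Th2 cells) and cells labelled naive T cells were each represented by 1 library from bronchoalveolar lavage and 1 from the mediastinal lymph node, which drains the lung. Splenic and thymic CD4+ lymphocytes had 1 library apiece. The sort gates, the ages of the mice, the agent behind the inflammation and the number of mice per library are not given in the sources used here. Where 2 values follow each other below, the lavage library comes first.

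Integrins are receptors made of an alpha and a beta subunit that hold a cell to matrix or to other cells. Itgb7 pairs with Itgae to bind E-cadherin on epithelium, and with Itga4 to bind the gut vessel ligand MAdCAM-1. Itga4 with Itgb1 binds VCAM-1, and Itgal with Itgb2 forms LFA-1, which binds ICAM-1. Itgav pairs with several beta subunits to bind vitronectin, fibronectin and latent TGF-beta. CD69 on the surface takes the sphingosine-1-phosphate receptor S1PR1 off the surface and so holds lymphocytes in tissue. CD44 binds hyaluronan and is carried at high level by activated and memory lymphocytes, and Selplg encodes PSGL-1, the ligand of P-selectin. H3K4me2 marks promoters and enhancers, active or poised, and its level is not a level of transcript.

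The libraries held between 11870820 tags (Th2 cells of the lymph node) and 24945548 tags (ILC2s of the lavage), and between 14723 and 21985 peaks. Values are tags in a peak scaled to 10000000 tags per library, called tags from here on. A peak had to reach about 40 tags, so a region described as not called lay below that level or failed another criterion of the peak finder. Peaks of the 6 lavage and lymph node libraries were merged into 27854 regions, of which 37 belonged to the 10 genes. Of the regions called in either of 2 libraries, the ILC2 pair shared 88.1% and the Th2 pair 86.1%. The lavage library labelled naive T cells shared 80.0% and 77.0% with the Th2 libraries. With the lymph node library labelled naive T cells it shared 64.5%. By count it shared more regions with that library, 14678, than with the Th2 libraries, 13531 and 13207. The percentage depends on list length, and the lymph node library labelled naive T cells had the most peaks, 21985. Peaks near the T cell markers Cd3d, Cd3e, Cd3g, Cd4, Cd5, Lat and Themis summed to between 7494.8 and 10558.0 tags in the 4 T cell libraries and to 574.4 and 631.6 in ILC2s. Peaks near the ILC2 markers Il1rl1, Rora, Gata3, Arg1, Kit, Il17rb and Areg summed to 19496.8 and 20554.2 tags in ILC2s against 3313.4 to 5843.0 in T cells, with none near Il17rb. Eosinophil and mast cell markers summed to between 233.6 and 567.8 tags in T cells and to 894.6 and 1264.1 in ILC2s, with no peak near Siglecf, Epx or Prg2. Their part in the results was not tested. A lower share of cells with the mark and less of the mark per cell cannot be told apart in such libraries.

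Every one of the 10 genes had at least 1 peak in each of the 8 libraries. Itgav ranged most, from 1 peak in naive T cells of the lymph node, spleen and thymus to 7 and 8 in ILC2s. Cd44 had between 5 and 8 peaks and the fewest in ILC2s of the lavage, where neighbouring peaks had been joined into longer ones. Itgb7 had 1 peak in 7 libraries and 2 in the thymus, and Itgb2 had 2 in each ILC2 library and 1 in all others. Of the 37 regions, 14 (37.8%) were called in all 6 lavage and lymph node libraries, against 41.9% of all merged regions, and each gene had at least 1 of the 14.

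**Figure D1:**
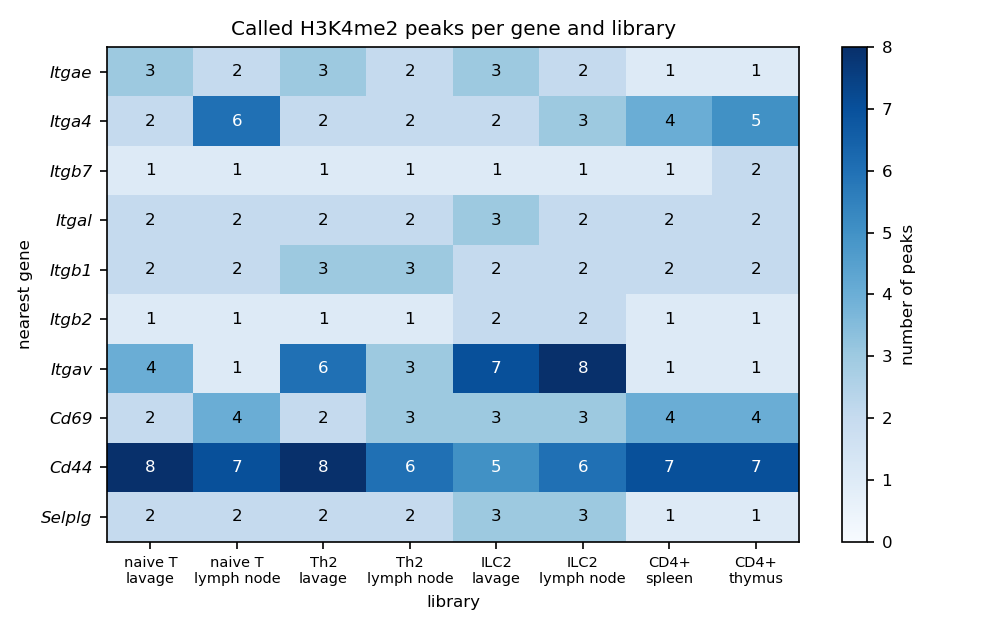
Number of called H3K4me2 peaks (cell number and blue shade) whose nearest gene is the one in the row, for each of the 8 libraries in the columns. Itgav goes from 1 peak in naive T cells of the lymph node to 8 in ILC2s of the lymph node, while Itgb7 has 1 peak in 7 of 8 libraries.

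RefSeq promoter windows of 250 bases before to 50 bases after a transcription start (GRCm38.p6, the coordinates of mm10) matched 5 of the 10 genes: Itga4, Itgb7, Itgb1, Itgav and Cd44. All 5 windows lay inside a region called in all 6 libraries. Of these, 4 are printed, for subunits of VLA-4 and alpha-4 beta-7 and for Cd44, whose contrasts between ILC2s and T cells are described next. None of those 4 regions passed the test against T cells, and Itgb2, whose region did, had no matching window. The windows are chr2:79255176-79255475 (plus strand) for Itga4, chr15:102231886-102232185 (minus strand) for Itgb7, chr8:128685404-128685703 (plus strand) for Itgb1 and chr2:102901616-102901915 (minus strand) for Cd44. Capitals mark matches on either strand to 6 motifs, and no matches overlap in the printed windows.
Itga4: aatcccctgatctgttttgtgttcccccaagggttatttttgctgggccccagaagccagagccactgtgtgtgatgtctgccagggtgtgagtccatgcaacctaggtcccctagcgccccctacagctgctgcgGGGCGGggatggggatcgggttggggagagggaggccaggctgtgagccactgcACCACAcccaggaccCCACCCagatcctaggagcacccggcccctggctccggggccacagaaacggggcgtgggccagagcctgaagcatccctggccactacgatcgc
Itgb7: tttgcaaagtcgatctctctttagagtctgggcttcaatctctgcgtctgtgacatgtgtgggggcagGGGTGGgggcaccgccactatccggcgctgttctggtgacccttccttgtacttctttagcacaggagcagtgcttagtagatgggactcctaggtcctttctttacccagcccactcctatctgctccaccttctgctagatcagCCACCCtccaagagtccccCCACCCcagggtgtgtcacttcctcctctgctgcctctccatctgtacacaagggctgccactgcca
Itgb1: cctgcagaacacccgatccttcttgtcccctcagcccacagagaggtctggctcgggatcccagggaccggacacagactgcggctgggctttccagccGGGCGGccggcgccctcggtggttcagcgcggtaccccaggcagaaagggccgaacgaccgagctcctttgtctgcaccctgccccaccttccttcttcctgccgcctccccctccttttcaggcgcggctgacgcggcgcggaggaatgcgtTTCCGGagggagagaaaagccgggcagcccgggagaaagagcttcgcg
Cd44: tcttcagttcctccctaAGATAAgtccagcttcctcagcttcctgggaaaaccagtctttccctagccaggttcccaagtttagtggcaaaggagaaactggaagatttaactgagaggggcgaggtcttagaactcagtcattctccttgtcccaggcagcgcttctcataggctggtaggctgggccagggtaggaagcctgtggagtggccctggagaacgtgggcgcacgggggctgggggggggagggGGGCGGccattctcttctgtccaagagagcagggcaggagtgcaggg

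The motifs were AGATAA for GATA factors, TGTGGT for Runx factors, TGANTCA for AP-1, CCGGAA for Ets factors, CCACCC for Klf factors and GGGCGG for Sp factors. Among 32817 promoter windows of the same length they occurred in 11.2%, 16.8%, 7.8%, 14.9%, 31.5% and 35.6%. The Itga4 window held 1 Runx match at -60, 1 Klf match at -45 and 1 Sp match at -114, counted from the start. Itgb7 held 3 Klf matches and none of the others. Itgb1 held 1 Ets match at 2 bases past the start and 1 Sp match at -151. Cd44 held 1 GATA match at -233 and 1 Sp match at 3 bases past the start, and Itgav, whose window is not printed, 1 Sp match. The windows of Itgb1 and Itgav were richest in G and C, at 67.3% each, and that of Itgb7 lowest at 56.3%, where the median window had 52.7%. A match is a run of letters and not a bound site.

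ILC2s were first compared with T cells, the mean of naive T and Th2 cells, in the regions that all 6 libraries had called. Itgb2 carried less H3K4me2 in ILC2s, the single region of the 14 that passed the test. On deposited tags, Cd44 and Itga4 had more in both ILC2 libraries than in any T cell library. So did the regions of Itgae, Itgav and Cd69 with the most tags. Itgb1 had fewer, and none of those contrasts passed. Of the 14 regions, limma with Benjamini-Hochberg adjustment over 11669 regions called 0 higher in ILC2s, where 2.92% of all regions were, and 1 lower, where 1.96% were. At an unadjusted p under 0.05 it marked 4 higher and 2 lower, beside 11.3% and 9.2% of all regions. Over all regions, 341 were higher and 229 lower, or 395 and 156 when libraries were not centred. The median difference on the log2(tags + 1) scale was 0.31 over the 14 and 0.00 over all. Each cell type had n = 2 libraries, 1 per site, so every p-value is set against a spread that holds the site. On deposited tags both ILC2 libraries lay above all 4 T cell libraries in 7 of the 14 regions (12.7% of all regions) and below in 2 (5.47%). Once each library was centred on its median over common regions, which lay between 0.37 below and 0.49 above the mean of the libraries on the log2 scale, these counts were 5 (14.7%) and 3 (14.8%).

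Split by T cell type, the median over the 14 regions was 0.51 against naive T cells and 0.03 against Th2 cells, beside -0.02 and -0.01 over all regions. Neither contrast called any of them with limma, where 2.62% of all regions were higher and 1.61% lower against naive T cells, and 2.14% and 1.28% against Th2 cells. At an unadjusted p under 0.05, 5 were higher (10.7% of all regions) and 2 lower (8.41%) against naive T cells, those lower being Itgb2 and Selplg. Against Th2 cells 3 were higher (11.6%) and 2 lower (10.1%), those lower being Itgb1 and Itgb2. In presence, 6 of the 37 regions were called in both ILC2 libraries and neither naive T library (11.6% of all merged regions), and 2 the other way round (2.93%). Set against Th2 cells, 4 were called in ILC2s alone (19.5%) and 1 in Th2 cells alone (1.52%). Another 2, of Itgav and Itgb1, were called in all ILC2 and Th2 libraries and in no naive T library (0.837%).

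**Figure D2:**
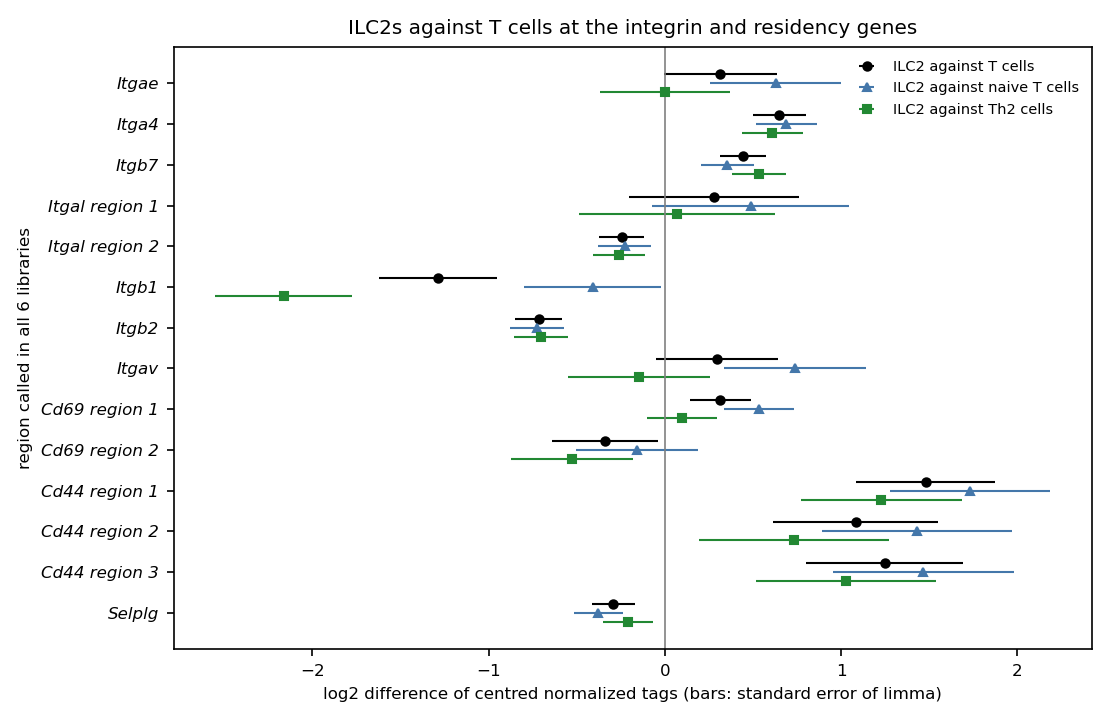
Difference between ILC2s and T cells on the log2 scale (horizontal axis; bars are the standard error of limma, n = 2 libraries per cell type) for the 14 regions called in all 6 libraries, against all T cells (black), naive T cells (blue) and Th2 cells (green). Itgb2 lies left of 0 with short bars in all 3 contrasts, the 3 Cd44 regions lie right of 0 with long bars, and Itgb1 lies left of 0, farthest against Th2 cells at -2.16.

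Itgb2 encodes the beta chain of LFA-1 and of the other leukocyte integrins. Its main region, chr10:77527678-77541076, overlaps the start of the gene interval. It held 1382.1 and 1590.5 tags in naive T cells, 989.3 and 925.0 in Th2 cells, 790.9 and 790.6 in ILC2s, 1384.5 in spleen and 867.8 in thymus. The ILC2 libraries were the lowest of the 8 and did not overlap with the T cells. The length under peaks differed little, between 11631 and 13263 bp in the 6 libraries, so tags per kb gave the same order: 65.5 and 66.0 in ILC2s against 79.0 to 133.1 in T cells. The difference on the log2 scale was -0.71 (SE 0.13, limma adjusted p = 0.0479), with -0.73 (SE 0.15, adjusted p = 0.0698) against naive T and -0.70 (SE 0.15, adjusted p = 0.0764) against Th2 cells. The call lay close to the threshold: over 16 settings the adjusted p ran from 0.0178 to 0.422 and passed in 9. It was lost with the site as a block (0.0654), without centring (0.162), with spleen and thymus among the T cells (0.127), and on leaving out Th2 cells of the lavage (0.131) or lymph node (0.124) or ILC2s of the lavage (0.351) or lymph node (0.422). A second region inside the gene, chr10:77554414-77555461, was called only in ILC2s, with 42.9 and 43.8 tags, just over the minimum.

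Itgal, the alpha chain that pairs with Itgb2 in LFA-1, showed a smaller difference. Its promoter-side region, chr7:127292892-127300143, held 517.0 and 628.5 tags in naive T cells, 399.0 and 363.9 in Th2 cells and 430.9 and 427.5 in ILC2s. ILC2s lay between the T cell types on deposited tags. After centring both ILC2 libraries lay below all 4 T cell libraries, with a difference of means of -0.24 (SE 0.13, limma adjusted p = 0.367). A region 4956 bp outside the gene, chr7:127283806-127291183, ranged from 132.0 to 302.2 tags with overlap of all 3 cell types, and was highest in the thymus at 532.1.

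Itgb1, the beta chain of VLA-4 and other matrix receptors, had its most tags in Th2 cells. The region over its start, chr8:128683963-128697978, held 538.7 and 316.9 tags in naive T cells, 877.7 and 949.4 in Th2 cells, 279.4 and 268.9 in ILC2s, 388.8 in spleen and 342.0 in thymus. On deposited tags ILC2s were the lowest of the 8 libraries, next to naive T cells of the lymph node, and Th2 cells were apart from all others. After centring the ILC2 libraries did not both lie below all 4 T cell libraries. Against Th2 cells the difference was -2.16 (SE 0.39, limma adjusted p = 0.0518), just outside the threshold, with adjusted p between 0.00454 and 0.357 over 15 settings and 5 of them past it. Against naive T cells it was -0.41 (SE 0.39, adjusted p = 0.639), and against both -1.29 (SE 0.34, adjusted p = 0.106). Breadth differed too, as peaks covered 13967 and 13804 bp in Th2 cells and 4817 and 4798 bp in ILC2s. Per kb of called peak the level was 62.8 and 68.8 tags in Th2 cells against 58.0 and 56.0 in ILC2s, and the difference -0.47 on the log2 scale (adjusted p = 0.357).

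Around Itgb1 the presence of smaller peaks also differed between the cell types. A region 30142 bp outside the gene, chr8:128653428-128655512, was called in the 4 T cell libraries (81.9, 94.3, 64.2 and 54.8 tags), in spleen (84.4) and in thymus (225.4), and in neither ILC2 library. It was the only one of the 37 regions with that pattern, which 0.804% of all merged regions had. Another region inside the gene, chr8:128701328-128704010, was called in Th2 cells (122.8 and 165.1 tags) and ILC2s (101.4 and 73.6) and not in naive T cells, spleen or thymus.

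Itga4, the alpha chain shared by VLA-4 and alpha-4 beta-7, had a broad region over its promoter with most tags in ILC2s. The region, chr2:79247626-79272001, held 1692.7 and 1756.7 tags in naive T cells, 1174.4 and 1211.3 in Th2 cells, 2436.1 and 2469.5 in ILC2s, 1731.7 in spleen and 1309.1 in thymus. ILC2s were above and Th2 cells below all other libraries. The difference from T cells was 0.65 on the log2 scale (SE 0.15, limma adjusted p = 0.0791) and missed the threshold. It passed in 3 of 16 settings: with spleen and thymus among the T cells (adjusted p = 0.0257), without naive T cells of the lavage (0.015) and without those of the lymph node (0.0368). Peaks covered 23831 and 24052 bp in ILC2s and 14404 to 17291 bp in T cells. Per kb the ILC2s had 102.2 and 102.7 tags, inside the range of 75.0 to 103.3 in T cells.

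A region 16833 bp outside Itga4, chr2:79235653-79238593, was called only in ILC2s among the 6 libraries, with 112.6 and 131.8 tags. The thymus also had it, at 126.6 tags, so it was not restricted to ILC2s over the 8 libraries. The 3 remaining Itga4 regions were called in naive T cells, spleen or thymus, with tags of 48.9 to 146.0, and 1 of them also in ILC2s of the lymph node at 51.7.

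Itgb7, the beta chain for both Itgae and Itga4, had 1 region, chr15:102224035-102237381, which also overlaps the retinoic acid receptor gene Rarg. It held 944.1 and 1521.5 tags in naive T cells, 717.5 and 668.9 in Th2 cells, 1326.1 and 1378.9 in ILC2s, 1408.7 in spleen and 480.2 in thymus. On deposited tags ILC2s lay inside the range of the T cells. After centring they lay above it, and the difference from the T cell mean was 0.44 (SE 0.13, limma adjusted p = 0.138). The thymus was lowest of the 8.

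**Figure D3:**
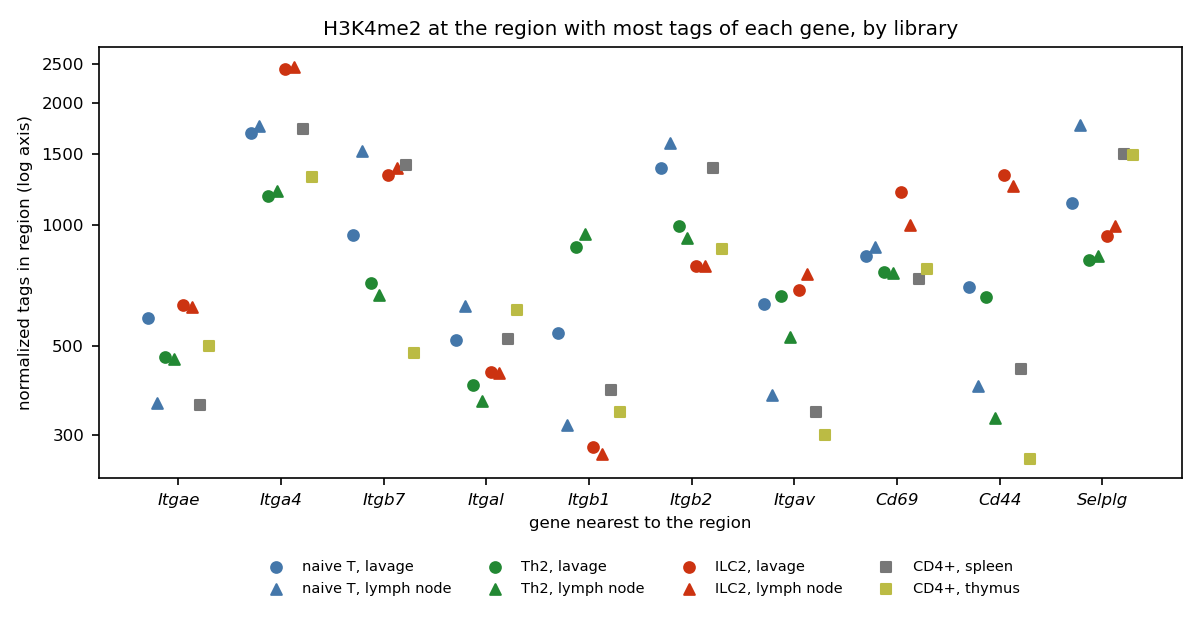
Normalized tags (log axis) in the region with the most tags of each of the 10 genes, 1 point per library: circles are lavage, triangles lymph node, and squares spleen and thymus. ILC2s (red) are above every other library at Itgae, Itga4, Itgav, Cd69 and Cd44 and below every other library at Itgb2 and Itgb1. After centring, which is not drawn, the separation from all 4 T cell libraries held at Itga4, Cd44 and Itgb2 of these.

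Itgav, the alpha chain of the vitronectin receptors, showed the widest range of accessory peaks. Its promoter region, chr2:83721208-83729588, held 636.5 and 376.6 tags in naive T cells, 665.1 and 526.5 in Th2 cells, 688.3 and 754.7 in ILC2s, 342.2 in spleen and 299.9 in thymus. The difference between ILC2s and T cells was 0.30 (SE 0.35, limma adjusted p = 0.696) and came to -0.01 without naive T cells of the lymph node. Tags per kb were alike, 76.4 to 90.1 in all 6 libraries. The other 7 regions were weaker and none was called in naive T cells of the lymph node, spleen or thymus.

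Of these, chr2:83742080-83747319, inside the Itgav gene, held 260.6 and 286.9 tags in ILC2s and 76.7 in Th2 cells of the lavage, and was not called elsewhere. A region 14586 bp outside the gene, chr2:83704947-83707717, was called only in ILC2s, at 87.4 and 145.0 tags. Together with those of Itga4 and Itgb2 it made 3 of 37 regions (8.11%) called in both ILC2 libraries and no T cell library, beside 9.87% of all merged regions. With every list held to the same number of peaks, 1 of the 3 was left, that of Itga4. The region chr2:83733276-83735078, was called in ILC2s (88.6 and 73.6 tags) and Th2 cells (51.7 and 60.7) and not in naive T cells.

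Cd44 had more tags in ILC2s in 3 regions inside the gene, the largest increases over T cells among the 14 common regions on summed tags. On tags per kb those differences were 0.07 to 0.28, below the 0.36 of Itgb7. The region over its promoter, chr2:102884842-102902686, held 700.5 and 396.1 tags in naive T cells, 662.0 and 330.2 in Th2 cells, 1324.5 and 1249.2 in ILC2s, 437.3 in spleen and 262.1 in thymus. Both ILC2 libraries were above all others, and within each T cell type the lavage was above the lymph node. The difference from T cells was 1.25 (SE 0.44, limma adjusted p = 0.197). It passed in 1 of 16 settings, without naive T cells of the lavage, at 1.56 (adjusted p = 0.0448), and came to 0.92 (adjusted p = 0.145) without those of the lymph node. Breadth differed as well, with 17449 and 17221 bp under peaks in ILC2s against 4013 to 10981 bp in T cells. Per kb ILC2s had 75.9 and 72.5 tags, and T cells 64.8, 98.7, 60.3 and 60.9, a difference of 0.07 on the log2 scale.

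The next Cd44 region, chr2:102866224-102878492, held 490.3 and 205.6 tags in naive T cells, 380.8 and 299.1 in Th2 cells and 753.2 and 760.8 in ILC2s. Its difference was 1.08 (SE 0.47, limma adjusted p = 0.276), with 1 of 15 settings past the threshold. It came to 1.5 (adjusted p = 0.00817) without naive T cells of the lavage and 0.65 (adjusted p = 0.0603) without those of the lymph node. Peaks covered 12196 and 12033 bp in ILC2s and 3831 to 8471 bp in T cells. The weakest of the 3, chr2:102848437-102854487, was weak, with 40.1 to 128.8 tags in T cells and 157.1 and 288.7 in ILC2s. It differed by 1.48 (SE 0.39, adjusted p = 0.11), and passed in 1 of 15 settings, at 1.77 (adjusted p = 0.0196) without naive T cells of the lymph node, beside 1.18 (adjusted p = 0.0514) without those of the lavage. Outside the gene, chr2:102941484-102949812 held 453.0 and 340.8 tags in ILC2s, 230.6 and 103.6 in Th2 cells. It held 225.3 in naive T cells of the lavage and was not called in naive T cells of the lymph node, spleen or thymus. Conversely, 2 small regions nearer the gene were called in naive T cells of the lymph node (59.7 and 83.3 tags) and in spleen, and in no other lavage or lymph node library.

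**Figure D4:**
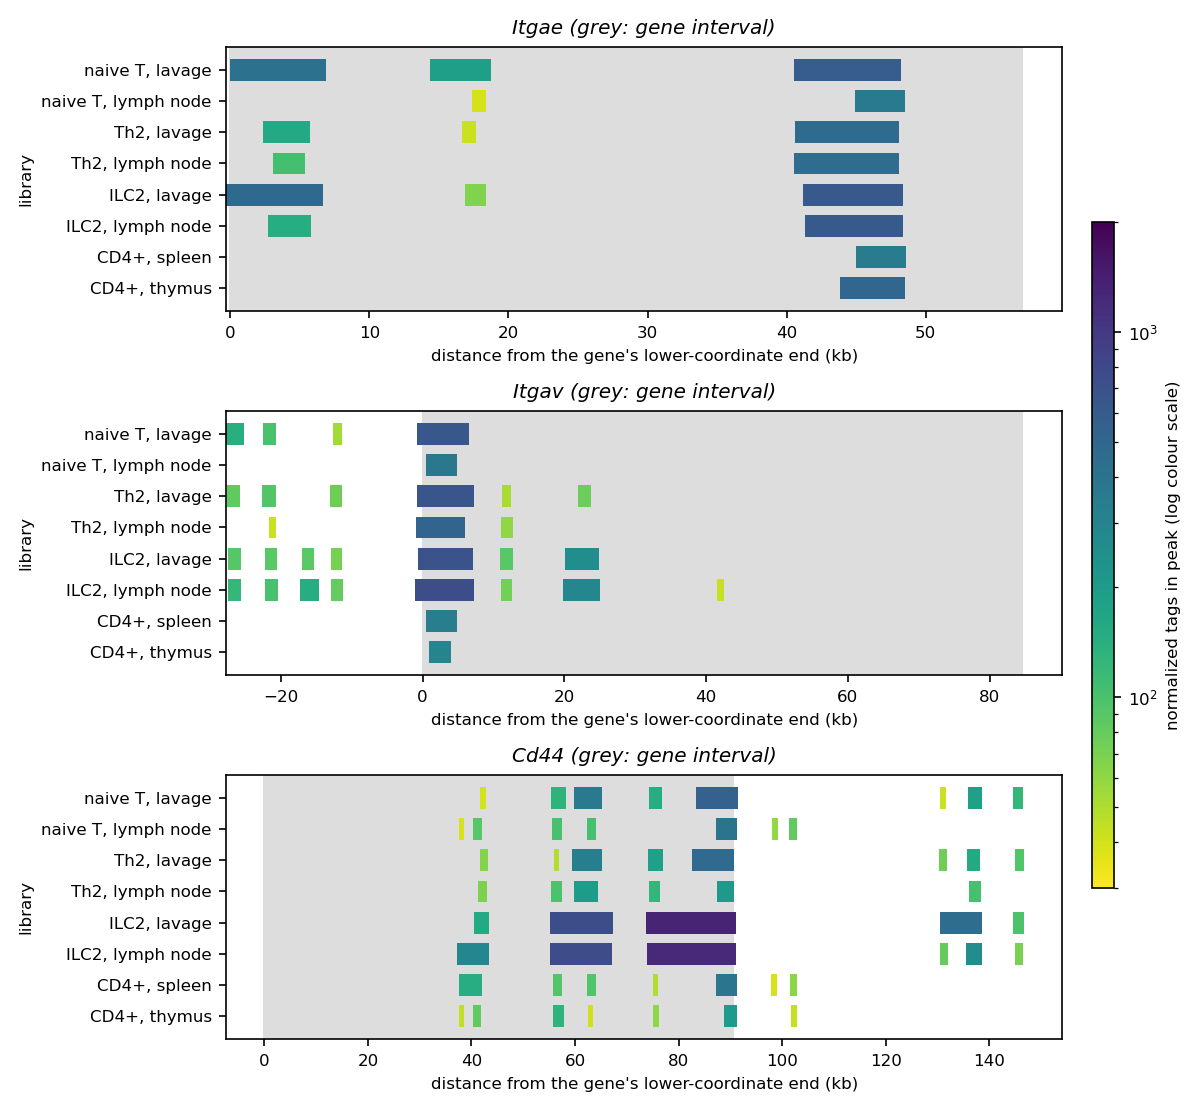
Called peaks at Itgae, Itgav and Cd44 in the 8 libraries (rows), drawn to scale by distance in kb from the lower-coordinate end of the gene interval (grey); colour is tags per peak on a log scale. Peaks at Cd44 are longer in ILC2s, up to 17449 bp in the region over the promoter, and Itgav has accessory peaks in ILC2s that naive T cells of the lymph node, spleen and thymus lack.

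Cd69, the retention receptor, differed little at its gene. The region over it, chr6:129265651-129277449, held 837.1 and 878.3 tags in naive T cells, 762.4 and 759.8 in Th2 cells, 1202.6 and 998.7 in ILC2s, 730.9 in spleen and 774.8 in thymus. ILC2s were above all others on deposited tags, but after centring they did not both lie above all 4 T cell libraries. The centred difference was 0.31 from T cells (SE 0.17, limma adjusted p = 0.384) and 0.10 from Th2 cells (SE 0.20, adjusted p = 0.804). Per kb the order turned, with 102.0 and 97.3 tags in ILC2s and 107.4 to 150.3 in T cells, since peaks covered 11792 and 10266 bp in ILC2s and at most 7099 bp in T cells. That region was among the densest anywhere: per kb it stood between the 96.8 and 99.8 percentile of the common regions in each of the 6 libraries. A smaller region 7312 bp outside the gene ranged from 157.7 to 264.6 tags with overlap of all cell types.

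A strong block of the mark about 24 kb from Cd69 was divided differently between the libraries. In naive T and Th2 cells of the lymph node, both ILC2 libraries, spleen and thymus it gave a peak of 858.9 to 1612.9 tags that was nearest to Cd69. In lavage naive T and lavage Th2 cells the block was called as 1 stretch of 35757 and 35260 bp, which reaches nearer to the C-type lectin gene Clec2d and was counted there. The jump of summed Cd69 tags from 1101.7 to 2730.5 in naive T cells and from 945.0 to 2336.8 in Th2 cells, lavage to lymph node, is that change of assignment. Summed over the whole block, chr6:129208073-129243851, the tags were 3076.9 and 2020.0 in naive T cells, 2685.5 and 2747.1 in Th2 cells and 2165.9 and 2443.3 in ILC2s. ILC2s did not stand apart there, at -0.30 (SE 0.30, limma adjusted p = 0.635).

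Selplg, the P-selectin ligand, held 1133.0 and 1772.1 tags in naive T cells, 817.9 and 834.8 in Th2 cells, 934.8 and 991.7 in ILC2s, 1498.2 in spleen and 1486.1 in thymus at chr5:113823048-113834198. ILC2s lay between Th2 and naive T cells. After centring they were lower by -0.29 on the log2 scale (SE 0.12, limma adjusted p = 0.254). A weak region 1834 bp outside the gene, with 56.7 to 113.8 tags, was called in 5 of the 6 lavage and lymph node libraries, all but naive T cells of the lymph node, and not in spleen or thymus.

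Itgae, the alpha chain of the E-cadherin receptor and a marker of resident lymphocytes, did not differ past the threshold. Its region with the most tags, chr11:73131045-73139054, overlaps the kinase gene Haspin as well. It held 586.4 and 360.4 tags in naive T cells, 469.4 and 462.5 in Th2 cells, 631.8 and 623.7 in ILC2s, 355.2 in spleen and 500.1 in thymus. Both ILC2 libraries were highest on deposited tags, but after centring they did not both lie above all 4 T cell libraries. The centred difference from Th2 cells was -0.001 (SE 0.37, limma adjusted p = 0.999). Over T cells it was 0.31 (SE 0.32, limma adjusted p = 0.646). The difference rested on the naive T libraries, at 0.60 (adjusted p = 0.0282, the 1 passing setting of 16) without that of the lavage and 0.02 (adjusted p = 0.932) without that of the lymph node.

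The second comparison set lavage against lymph node within each cell type. Itgae and Cd44 had regions with more tags in the lavage library of all 3 cell types, but no region passed the test, here or anywhere. Some of these differences were slight, at 1.01-fold in Th2 cells and ILC2s at chr11:73131045-73139054 of Itgae. In ILC2s the Cd44 promoter region was 1.06-fold. A weak Cd44 region was higher in the lymph node in all 3 cell types. Within a cell type there is 1 library per site and no test. The site term over the 3 types, with cell type as a block, called 0 of 11669 regions (0.0%) and 0 of the 14 with limma. At an unadjusted p under 0.05 it marked 547 of all regions and 2 of the 14, both in Cd44: 1 higher in the lavage (2.95% of all regions) and 1 lower (1.74%). The adjusted p of the 14 lay between 0.873 and 0.975, and their median was 0.21 on the log2 scale beside 0.00 over all regions. A test of whether the site difference of ILC2s departed from that of T cells called 0 regions with limma, with 98 at an unadjusted p under 0.05 and none of the 14 among them.

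Itgae lay toward the lavage in its 3 regions. The one at the lower end of the gene interval, chr11:73090220-73097396, held 410.4 tags in lavage naive T cells and was not called in those of the lymph node. Th2 cells had 158.3 and 105.3 tags there and ILC2s had 486.3 and 148.5, and the region was not called in spleen or thymus. The 95% Poisson intervals of the ILC2 pair, 459.3 to 514.4 and 133.1 to 165.2, did not meet, nor did those of the Th2 pair, 139.5 to 179.1 and 87.7 to 125.5. They cover counting error only. The lavage level was 3.27-fold that of the lymph node in ILC2s and 1.5-fold in Th2 cells. The covered length moved with it, at 6985 and 3064 bp in ILC2s and 3361 and 2336 bp in Th2 cells. With the uncalled library set to 40 tags, the site term was 2.06 (SE 0.62, limma adjusted p = 0.875).

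The middle Itgae region, chr11:73104832-73109265, was called in the lavage of all 3 cell types, at 191.0 tags in naive T cells, 41.8 in Th2 cells and 66.9 in ILC2s. Of the lymph node libraries only naive T cells had it, at 39.4 tags, and spleen and thymus did not. At the third region, chr11:73131045-73139054, the lavage was 1.63-fold the lymph node in naive T cells and 1.01-fold in Th2 cells and in ILC2s.

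Cd44 differed between sites in both directions, depending on the region. At the promoter region the lavage was 1.77-fold the lymph node in naive T cells and 2.0-fold in Th2 cells, and 1.06-fold in ILC2s. The site term there was 0.82 (SE 0.25, unadjusted p = 0.0239, limma adjusted p = 0.873). At chr2:102866224-102878492 the ratios were 2.38, 1.27 and 0.99 in the same order. The weak region chr2:102848437-102854487 went the other way in all 3 cell types, with ratios of 0.311, 0.96 and 0.544 and a site term of -0.68 (SE 0.26, unadjusted p = 0.0478, adjusted p = 0.873). Outside the gene, chr2:102941484-102949812 was 2.23-fold higher in the lavage in Th2 cells and 1.33-fold in ILC2s, and chr2:102955658-102957834 was called in lavage and not in lymph node T cells of both types, and 1.4-fold higher in the lavage in ILC2s. As for ILC2s against T cells, covered length moved with these ratios: Th2 cells had 10981 and 5419 bp under peaks at the promoter region and 60.3 and 60.9 tags per kb.

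Of the other genes, Cd69 had 1 weak region, 7312 bp outside the gene, with ratios of 1.5, 1.0 and 1.17 in naive T cells, Th2 cells and ILC2s. Itga4 was level between sites at its promoter region, with ratios of 0.964, 0.97 and 0.986 in the same order. Selplg was at 0.639, 0.98 and 0.943, and Itgb2 at 0.869, 1.07 and 1.0. Itgav at its promoter was 1.69-fold higher in the lavage in naive T and 1.26-fold in Th2 cells, and 0.912 of the lymph node in ILC2s. Its outer regions chr2:83694609-83697162 and chr2:83709181-83711140 were called in the lavage and not in the lymph node of both T cell types, and in both ILC2 libraries.

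Over the 37 regions, with a library not called counted as the lower one, the lavage was higher in all 3 cell types in 7, those of Itgae (3), Cd44 (3) and Cd69 (1). Of all merged regions, 3.23% had that pattern. Any excess counted, such as 182.6 against 182.0 tags in Th2 cells at the Cd69 region. The tags were not centred here. Over common regions the naive T median lay 0.038 above the mean of the libraries in the lavage and 0.489 above it in the lymph node, on the log2 scale. What this adds to the share over all regions was not tested. The lymph node was higher in all 3 in 3 regions, of Itga4, Cd44 and Selplg, beside 15.4% of all. Without the naive T libraries, a choice made after seeing the data, the lavage was higher in 10 of the 37 (11.7% of all) and the lymph node in 4 (19.3%). With a condition dropped, these counts could not fall. Regions called in lavage but not lymph node Th2 cells numbered 5 of 37 (3.97% of all), and the reverse 0 (3.64%). In ILC2s these numbers were 1 (4.53%) and 2 (4.91%). Cells labelled naive T had 7 regions in the lavage alone (5.52%), of Itgae, Itgav, Cd44 and Selplg, and 6 in the lymph node alone (23.5%). Of the 37, 4 were called in every library but naive T cells of the lymph node (1.85%), 1 each for Itgae, Itgav, Cd44 and Selplg, and 4 in that library alone (14.7%). No region of the 10 genes was called in all 3 libraries of the lavage and in none of the lymph node (0.0646% of all), or the reverse (0.0359%). Of the 14 common regions, the lavage was above the lymph node in all 3 cell types in 3 (4.75%) and below in 3 (33.9%) on deposited tags, and in 7 (14.5%) and 1 (13.4%) after centring.

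**Figure D5:**
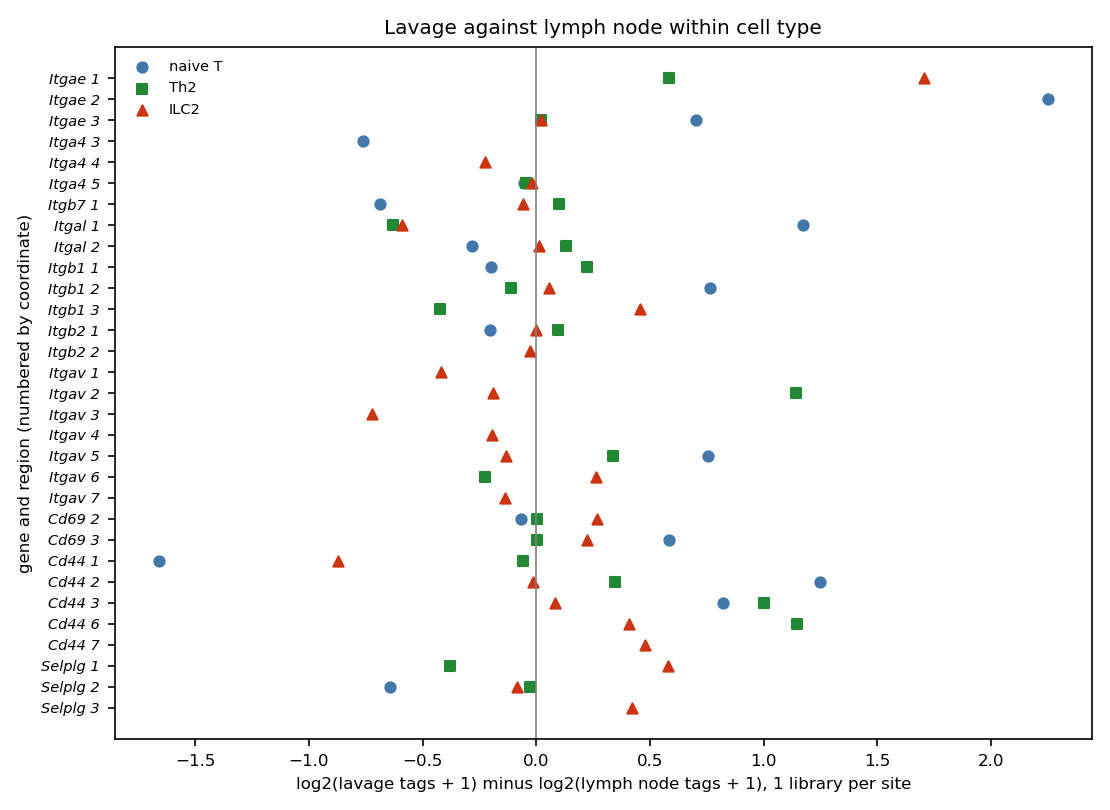
Difference in log2(tags + 1) between the lavage and the lymph node library of each cell type (1 library per site, so no error bar) for the regions called in both libraries of at least 1 cell type, numbered along each gene; pairs with an uncalled library have no point. The first Itgae region lies right of 0 in Th2 cells and ILC2s, and the promoter region of Cd44 (region 3) lies right of 0 for T cells and near 0, at 0.08, for ILC2s.

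Related genes of adhesion and retention were counted from 5 lists, to be read beside the 2.92% of all regions that were higher and the 1.96% that were lower in ILC2s than in T cells. Among 19 other integrin subunits, 7 genes had 11 regions called in all 6 libraries, of which 0 were higher in ILC2s than in T cells and 1 was lower. It belonged to Itga6, a laminin receptor chain. Its tags were 486.9 and 843.0 in naive T cells, 229.4 and 391.7 in Th2 cells and 127.1 and 151.6 in ILC2s (-1.78, SE 0.24, limma adjusted p = 0.0211). Itgb3, the usual partner of Itgav in the vitronectin receptor, passed against naive T cells, higher in ILC2s at 2378.8 and 2497.5 tags against 985.9 and 847.5 (1.59, SE 0.28, limma adjusted p = 0.0462). Itga3 was higher in ILC2s than in Th2 cells, at 225.3 and 175.6 tags against 64.2 and 58.1 (1.26, SE 0.21, limma adjusted p = 0.0446). It was the 1 region of the list higher there (2.14% of all regions), and 0 were lower (1.28%). In presence, 1 of the list's 49 regions, of Itgb6, was called in both ILC2 libraries and no T cell library (9.87% of all merged regions). The reverse held for 1, of Itgb8 (0.804%).

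Of 14 regulators of residency and egress, 11 genes had 22 such regions, 0 higher and 3 lower in ILC2s than in T cells. S1pr1, the egress receptor that CD69 opposes, was lower at 2 regions. The one over the gene held 909.9 and 1525.1 tags in naive T cells, 594.7 and 688.2 in Th2 cells and 510.3 and 573.8 in ILC2s (-0.81, SE 0.14, limma adjusted p = 0.0435). The one 19897 bp outside held 206.1 and 440.0, 140.3 and 135.6, and 46.5 and 63.1 tags in the same order (-2.02, SE 0.22, limma adjusted p = 0.0123). Klf2, the factor that drives S1pr1 transcription, was lower as well (-0.88, SE 0.15, limma adjusted p = 0.0422). Regions of Prdm1 (2), Ahr (2) and Bhlhe40 (1), factors of tissue-resident lymphocytes, were called in both ILC2 libraries and no T cell library, 5 of the 75 regions of that list where 9.87% of all merged regions had the pattern.

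Of 14 genes of integrin activation, with 39 tested regions, 0 were higher and 1 was lower in ILC2s than in T cells, 99476 bp from the small GTPase gene Rap1b. Against naive T cells 2 were higher (2.62% of all regions) and 0 lower (1.61%). They were a second Rap1b region, 92233 bp from the gene (1.654, SE 0.167, limma adjusted p = 0.0108), and 1 of Ptk2b (1.555, SE 0.252, limma adjusted p = 0.0354). Talin partner Vcl had 3 of the list's 60 regions called in both ILC2 libraries and no T cell library, again beside 9.87% of all. Among genes that build selectin ligands, 13 regions were tested, 2 higher and 0 lower in ILC2s. Both belonged to the sialyltransferase gene St3gal6, with 151.1 and 198.9 tags in ILC2s against 46.1 to 67.4 in T cells at the first (1.52, SE 0.15, limma adjusted p = 0.00925). At the second it had 365.6 and 388.1 tags in ILC2s against 103.6 to 290.5 (1.06, SE 0.19, limma adjusted p = 0.0455). The sulfotransferase gene Tpst1 had 4 of that list's 25 regions called in both ILC2 libraries and no T cell library, beside the same 9.87% of all. Of 9 integrin and selectin ligand genes, 4 regions were tested and 0 passed in either direction. Of that list's 9 regions, 2 were called in both ILC2 libraries and no T cell library (9.87% of all), those of Fn1 and Vcam1. The site term called 0 regions in any of the 5 lists. The medians over the 5 lists against T cells lay between -0.13 and 0.08 on the log2 scale.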

How the data were processed

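H3K4me2 peak lists of 8 libraries were used. Bowtie, HOMER and mm10 are named, without versions, in the submitters' processing notes. Per the file headers, HOMER findPeaks called peaks in each library separately (size 1000 bp, minimum distance 2500 bp, false discovery rate 0.001, 4-fold over IgG, about 40 tags) and joined neighbours into regions of variable length. The deposited signal is a normalized tag count, which the authors scaled to 10000000 tags per library. The deposited ratio (fold over IgG, 5.73 to 139.35 at the 223 peaks) and p-value come from the same caller, and both only served to describe peaks. The 2 IgG samples carry the H3K4me2 antibody in their labels although their titles say IgG, and they enter only as the caller's background.

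Peaks of 6 libraries were merged within 500 bp, with Python 3.11.15, and given to the nearest of 21900 protein-coding gene intervals of RefSeq (GRCm38.p6, with no exons or strand, so promoter means the RefSeq window or the end of an interval). Regions called in all 6 (11669) were tested with limma 3.58.1 in R 4.3.3 on log2(tags + 1), each library centred on its median over them, at an adjusted p of 0.05. A fold on this scale is close to that of the tags, as tags are well above 1, but tags of a region sum over what was called, so covered length is given beside them. A region that lost its peak in 1 library leaves the test, so differences of presence are counts without a test. Nothing in the labels ties libraries to separate animals, so p-values measure the spread between these libraries. All genes were named by rule: the region with the most tags, those past the threshold and those called on 1 side only, and of each list at most 3 regions per direction. The genes, lists and tests were chosen with earlier results of these data known. The fit was tested on simulated data. Alternatives were another pseudocount (10), no centring, tags per kb, uncalled values set to 40 tags, other merging, equal numbers of peaks (14723), genes within 10 kb, spleen and thymus added, a replicate block, and each library left out.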

Additional observations from a re-analysis of the deposited data

How the results depend on the processing

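Calls for ILC2s against T cells moved with several settings. Of regions of the 10 genes, 1 passed, 0 with a replicate block, 5 with uncalled values set to the minimum, 2 with spleen and thymus added, and 0 to 6 with 1 library left out. Over all regions 570 passed, 3454 with uncalled values set to the minimum, 85 on tags per kb, 860 with spleen and thymus, and 0 to 1737 with 1 library left out. Against naive T cells 0 regions of the 10 genes passed, 7 with uncalled values set to the minimum, and 0 to 5 with 1 library left out. Over all regions these were 494, 3813, 73 on tags per kb (53 higher and 20 lower, against 306 and 188), and 0 to 2009. Against Th2 cells 0 regions of the 10 genes passed, 2 without centring, 4 with uncalled values set to the minimum, 1 with equal numbers of peaks, and 0 to 3 with 1 library left out. Over all regions 399 passed (250 higher and 149 lower), 207 with a replicate block, 844 without centring (738 and 106), 1884 with uncalled values set to the minimum, 4 on tags per kb, and 0 to 1756 with 1 library left out. The lowest counts come without a Th2 or ILC2 library, the highest without a library labelled naive T, and a cell type left with 1 library is assumed to vary like the others. The setting with uncalled values tests more regions, and regions missing from 1 side had to differ there.

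Regions called only in ILC2s numbered 3 at the 10 genes, 1 with equal numbers of peaks and 1 with genes within 10 kb, and 3 to 4 with 1 library left out. Over all regions they numbered 2748, 1056 with equal numbers of peaks and 2851 to 4304 with 1 library left out. Regions called only in T cells numbered 1 at the 10 genes and 0 under those 2 settings. Over all regions they numbered 224, 540 with equal numbers of peaks, 119 with spleen and thymus, and 250 to 361 with 1 library left out. Regions higher in the lavage in every cell type numbered 900, and 3271 without naive T cells. Those higher in the lymph node numbered 4294 and 5387. Leaving out a cell type drops a condition, so both counts could only stay or rise.

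Of 398 alternative values for 28 single-region contrasts, 358 kept direction and side of the threshold, 27 gained a call, 7 lost one and 6 reversed. Values with genes within 10 kb repeat the main fit, since only gene names change, also in the counts of settings given for single regions. The replicate block can move an error but not a difference, as each cell type has 1 library per site. Without naive T cells of the lymph node, ILC2s against T cells came to -0.14 at Itgal (127283806) and -0.014 at Itgav (83721208), the ends of leave-one-out ranges that reach 0.682 and 0.595 without naive T cells of the lavage. On tags per kb it came to -0.31 and 0.023 at the Cd69 regions 129265651 and 129282687, and to -0.23 against naive T cells at the former, and the site term of Cd44 at 102848437 came to 0.26. The cause was not tested. Replicate numbers are the site, and same-numbered libraries deviated together with correlations of 0.11, -0.01 and 0.26 over the 3 pairs of cell types, so they were not treated as paired. With the replicate block, which cannot move the difference of -0.71, Itgb2 had a limma adjusted p of 0.0654.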
